A study of Rattus norvegicus with 12 samples.

Results

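The genes described here are the clock and circadian output genes of rat cardiomyocytes in primary culture, treated with SIN-1 (written 3-morpholinosydnoimine in the labels). SIN-1 decomposes to nitric oxide and superoxide, which combine to peroxynitrite, a strong oxidant. The genes were chosen by name: Per1, Per2, Per3, Cry1, Clock, Nr1d1, Nr1d2, Ciart, Dbp and Tef, each represented by the probe with the highest mean over the 12 arrays among those assigned to that symbol alone. Of these 10 genes, 9 had a probe, 1 each, among the 18166 named genes measured, and Nr1d2 was not analysed here. The 4 groups of 3 arrays were wild-type cells left as control and wild-type cells treated with SIN-1 for 70 min, 4 h or 8 h, all grown in medium with fetal bovine and horse serum, per the labels. The labels used here give no SIN-1 dose, no strain or age of the animals, no time in culture or vehicle for the control and no hour of the day for any group. An effect of SIN-1 and an effect of time in culture cannot be told apart for these genes. All 3 treated times were set against the same 3 control arrays.

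The mammalian clock is a transcriptional loop that runs in nearly every cell, heart cells in culture included. CLOCK and its partner BMAL1 switch on the Period and Cryptochrome genes, whose proteins return to the nucleus and shut that activity off. REV-ERB receptors, encoded by Nr1d1 and Nr1d2, close a second loop by repressing Bmal1, and the loop drives output factors such as DBP and TEF. Period genes also respond acutely to serum, glucocorticoids and cAMP signals, which is how cultured cells are reset.

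The values are log2 expression after the authors' RMA normalization, so a difference of 1 is a doubling. Array medians over all probes ran from 4.98 to 5.12. The 3 arrays at 5.09 or above, 70 min replicates 2 and 3 and 4 h replicate 3, stood above the remaining arrays, which reached 5.05 at most. The label of the cells was set against marker genes. In control arrays the sarcomere and calcium release genes Myh6, Myh7, Ttn, Ryr2 and Actn2 had mean values of 3.99, 3.64, 4.46, 4.21 and 4.25, close to the median of 4.33 of probes with no gene name, while Tnnt2 and Pln stood at 5.99 and 8.16. Of the other cardiomyocyte markers, Mybpc3, Myl7 and Tnni3 stood at 4.42, 5.19 and 5.45. The collagen genes Col1a1, Col1a2 and Col3a1 stood at 12.75, 12.50 and 11.95. Of the other fibroblast markers, Postn, Lum and Mmp2 stood at 11.68, 9.05 and 8.75, and Dcn and Pdgfra at 6.165 and 5.77. Values of different probes are not strictly comparable. Several defining cardiomyocyte markers were near background while several fibroblast matrix genes, though not Dcn, were bright. The cells are called here as labelled. Means over the endothelial markers (4 of 6 measured) and the 6 macrophage and leukocyte markers stayed between 4.42 and 4.84 on every array. Within these lists Tek and Cd14 stood higher in control, at 6.04 and 7.63, and the rest at 4.81 or below. The 4 smooth muscle and pericyte markers averaged 8.37 to 8.60. These 4 split in control, with Tagln and Pdgfrb at 12.40 and 10.38 and Myh11 and Rgs5 at 5.59 and 5.87.

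Of the 9 genes, 7 differed between groups by limma's F test at an adjusted p under 0.05, against a background of 15.3% of all named genes. They followed 3 courses. Dbp and Per3 fell by 70 min and rose again afterwards, Per1 and Cry1 rose at 70 min and were lower again at 8 h, and Per2, Nr1d1 and Ciart had their lowest group mean at 4 h. Clock and Tef did not pass (adjusted p = 0.417 and 0.447). Dbp and Per3 had the largest F statistics of the 9 (89.51 and 17.12). The count of 7 was 3 with arrays centred on their medians or without the 3 arrays of highest median, and 2 with all probes tested. It was 3 without control replicate 1 or 4 h replicate 3, and 4 without control replicate 3, 70 min replicate 3, 4 h replicate 1 or 8 h replicate 2.

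**Figure D1:**
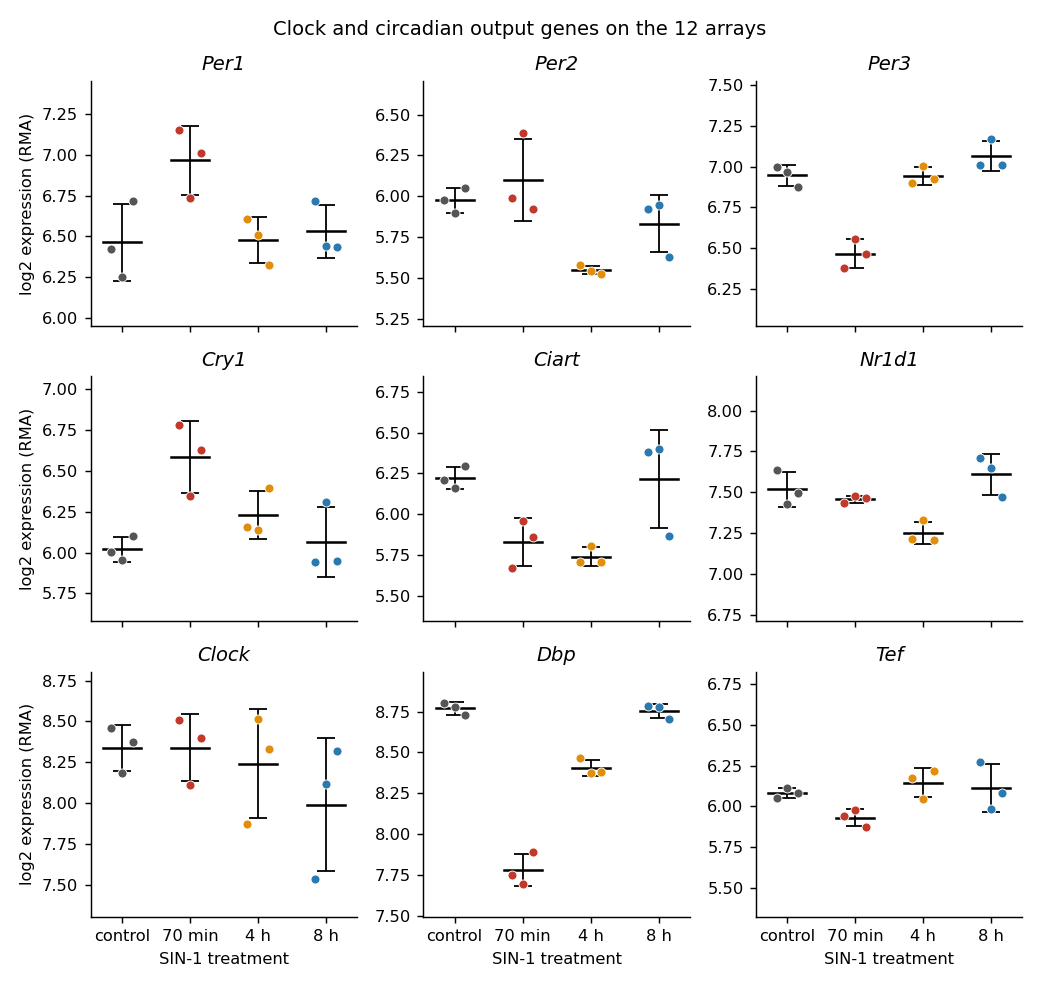
Log2 expression of the 9 genes on every array (points, replicates 1 to 3 from left to right in each group), with the group mean (long bar) and SD (error bar, n = 3); each vertical axis spans the same number of log2 units but starts at a different level. Dbp drops at 70 min from 8.77 to 7.78 and is back at 8.76 by 8 h, Per3 follows the same course on a smaller scale, and Per1 and Cry1 go the other way.

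The promoter sequences below are shown for the 4 genes whose 4 h arrays all lay below every control array, Dbp, Ciart, Per2 and Nr1d1. They come from RefSeq, build GRCr8, and run from 250 bases before to 50 bases after the annotated start, 5′ to 3′ on the gene's strand; Nr1d1 has 2 annotated starts. Capitals mark matches to clock-related motifs searched on both strands: the E-box CACGTG bound by CLOCK and BMAL1, its variant E'-box CACGTT, the D-box TTANGTAA bound by DBP and TEF, the cAMP response element TGACGTCA, its part TGACGT, which every full element also holds, and the receptor element TAGGTCA bound by REV-ERB and ROR. The Dbp window holds none of them, and so has no capitals.
Dbp, chr1:105312006-105312305, plus strand: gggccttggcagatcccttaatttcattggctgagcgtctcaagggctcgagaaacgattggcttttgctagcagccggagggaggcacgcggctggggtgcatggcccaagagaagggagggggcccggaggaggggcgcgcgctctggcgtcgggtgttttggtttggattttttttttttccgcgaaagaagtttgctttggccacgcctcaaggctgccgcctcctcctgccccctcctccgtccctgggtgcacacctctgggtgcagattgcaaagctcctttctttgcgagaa
Ciart, chr2:186112197-186112496, minus strand: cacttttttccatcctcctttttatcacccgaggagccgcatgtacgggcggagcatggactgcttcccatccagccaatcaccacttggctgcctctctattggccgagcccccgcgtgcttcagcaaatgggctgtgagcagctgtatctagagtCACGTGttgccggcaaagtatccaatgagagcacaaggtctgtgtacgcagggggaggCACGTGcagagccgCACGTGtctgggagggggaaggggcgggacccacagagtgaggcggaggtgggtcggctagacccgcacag
Per2, chr9:99496944-99497243, minus strand: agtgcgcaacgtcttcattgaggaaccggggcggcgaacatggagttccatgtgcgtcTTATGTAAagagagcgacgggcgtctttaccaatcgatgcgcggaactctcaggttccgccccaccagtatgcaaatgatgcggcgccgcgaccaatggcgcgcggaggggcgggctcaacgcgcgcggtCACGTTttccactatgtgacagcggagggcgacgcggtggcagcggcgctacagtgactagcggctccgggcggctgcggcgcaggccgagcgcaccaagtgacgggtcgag
Nr1d1 start 1, chr10:84231763-84232062, minus strand: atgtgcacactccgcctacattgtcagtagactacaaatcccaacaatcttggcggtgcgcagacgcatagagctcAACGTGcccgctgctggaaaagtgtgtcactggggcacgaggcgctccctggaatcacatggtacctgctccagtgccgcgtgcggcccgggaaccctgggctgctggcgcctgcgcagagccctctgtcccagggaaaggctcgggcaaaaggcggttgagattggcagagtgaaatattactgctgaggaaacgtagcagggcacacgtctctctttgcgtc
Nr1d1 start 2, chr10:84229405-84229704, minus strand: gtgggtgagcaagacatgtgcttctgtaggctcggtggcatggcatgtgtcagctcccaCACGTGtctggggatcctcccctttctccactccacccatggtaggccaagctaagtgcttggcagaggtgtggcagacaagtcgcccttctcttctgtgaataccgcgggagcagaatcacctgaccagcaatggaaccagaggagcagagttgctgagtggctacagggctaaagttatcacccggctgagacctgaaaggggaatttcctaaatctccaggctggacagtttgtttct

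The Ciart window held 3 E-boxes, beginning at -93, -35 and -21 from the start. Per2 had an E'-box at -62 and a D-box at -192, and Nr1d1 an E'-box at -174 in the first window and an E-box at -191 in the second. Among the other genes Tef had an E-box at -198. Altogether 8 of the 9 measured genes had a window in the table, 10 windows in all, and the E-box was found in 3 of these genes, the E'-box in 2 and the D-box in 1. Over all 33469 windows of 300 bases the E-box occurred in 6.42%, the E'-box in 4.83%, the D-box in 2.24%, the full cAMP response element in 1.83%, its part in 7.94% and the receptor element in 2.63%. The last 3 had no match in the windows of these genes. Elements outside such short windows, as known in the introns of mouse Dbp, are not covered by this search, and a match of letters is not evidence of binding.

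**Figure D2:**
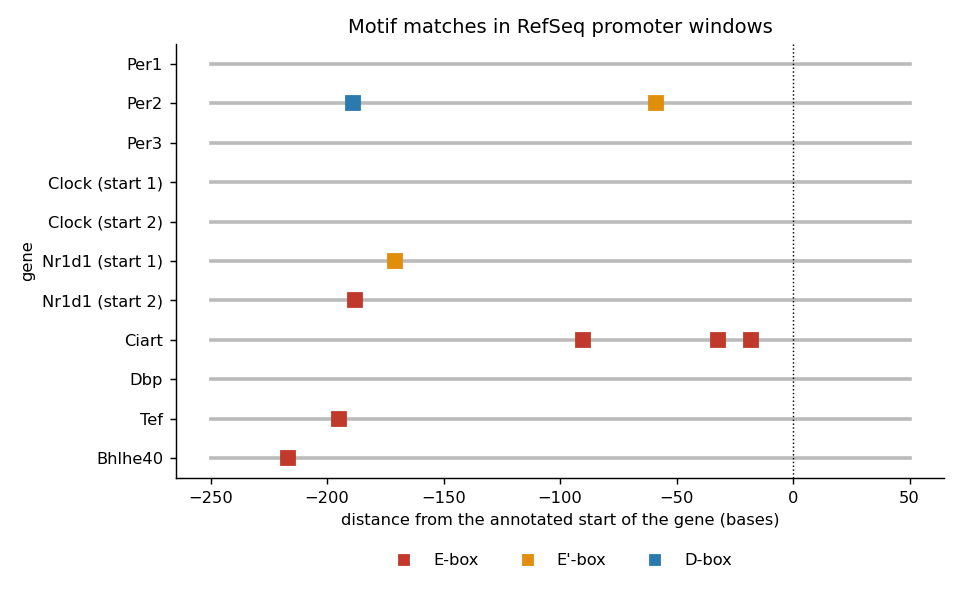
Positions of motif matches (squares) along the RefSeq promoter windows (grey lines), as distance in bases from the annotated start (dotted line); genes with 2 starts have 2 lines, and Bhlhe40, which belongs to the wider clock list, is added. The 3 E-boxes of Ciart lie between -93 and the start, and the lines of Per1, Per3, Clock and Dbp carry no match.

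At 70 min, 4 of the 9 genes passed limma's test against control (adjusted p under 0.05), against 14.6% of all named genes. Of these, 2 rose and 2 fell, beside 6.76% of named genes higher and 7.81% lower. Ranges of the treated and control arrays did not overlap for 6 of the 9, against 31.8% of all named genes. The median change of the 9 genes was -0.06, beside 0.03 for all named genes, since the genes moved in both directions. Without the 3 arrays of highest median, the count was again 4, with a single 70 min array left whose spread was assumed to equal that of the remaining groups.

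Dbp encodes a PAR bZIP transcription factor that carries the clock's signal to metabolic and detoxifying genes, and its transcript is strongly rhythmic in many tissues. Its control values were 8.80, 8.78 and 8.73, and its values at 70 min were 7.75, 7.70 and 7.89. All 3 treated arrays lay far below the controls. Dbp was 1.99-fold lower (log2 fold change -0.99 ± 0.07, SE; limma adjusted p = 5.88e-08), a change larger in size than that of 99.3% of named genes, and it ranked 28th of 18166 by p. The change ran from -1.04 to -0.95 when 1 array was left out. In these bulk samples, fewer cells of a type and less RNA per cell cannot be told apart. Of 8 fibroblast markers, 4 also fell at 70 min, beside 7.81% of all named genes lower. The mean log2 value over all 8 ran from 9.30 to 9.45 on the 70 min arrays against 9.78 to 9.85 in control. The 10 cardiomyocyte markers had means of 4.83 to 5.16 against 4.90 to 5.02, and 0 of the 10 passed by limma, with 1 at an unadjusted p under 0.05. Of 4 endothelial markers 1 was lower. Of 4 smooth muscle and pericyte markers 1 was higher, beside 6.76% of all named genes, and no macrophage and leukocyte marker passed. The part of the fibroblast and other markers in the fall of Dbp was not tested.

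Per3 encodes the Period protein with the least effect on the core loop when lost in mice. Control values were 6.997, 6.97 and 6.88, and those at 70 min were 6.38, 6.56 and 6.47, again with no overlap. The fall was 1.39-fold (-0.48 ± 0.09, SE; limma adjusted p = 0.00139). Leaving out any 1 array kept it between -0.53 and -0.43.

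Per1, the Period gene known for its fast response to resetting signals, went the opposite way. Its control values of 6.42, 6.25 and 6.72 were spread out, and its 70 min values of 7.15, 6.74 and 7.01 all lay above them, the lowest treated array only just above the highest control. The rise was 1.42-fold (0.50 ± 0.14, SE; limma adjusted p = 0.0189). The call was lost on leaving out control replicate 1 or 2 (limma adjusted p = 0.0706 and 0.0995) or 70 min replicate 1 or 3 (0.0657 and 0.0686), with arrays centred on their medians (0.0733) and with all probes tested (0.0669).

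Cry1 encodes the Cryptochrome that, with the Period proteins, blocks CLOCK and BMAL1. It stood at 6.01, 5.95 and 6.10 in control and at 6.78, 6.35 and 6.63 at 70 min, without overlap. The rise was 1.48-fold (0.57 ± 0.13, SE; limma adjusted p = 0.00722) and passed under each of the 24 alternative settings, with adjusted p between 0.00332 and 0.0344. Per2, a core Period gene, had control values of 5.98, 5.90 and 6.05 and 70 min values of 5.99, 6.39 and 5.92, which overlapped. Its change of 0.12 ± 0.13 (SE) did not pass (limma adjusted p = 0.585), with a 95% interval of -0.15 to 0.40. Of the 3 Period genes at 70 min, Per1 was thus higher, Per3 lower and Per2 not past the test. The 95% interval of Per1 (0.21 to 0.79) overlapped with that of Per2, and the genes were not tested against one another.

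Ciart, which encodes a repressor of CLOCK and BMAL1 also called CHRONO, had control values of 6.21, 6.16 and 6.29 and 70 min values of 5.67, 5.96 and 5.86. The ranges were apart, but its change of -0.39 ± 0.14 (SE) missed the threshold (limma adjusted p = 0.064). It passed with arrays centred on their medians (0.0465), among the brighter genes (0.0384), with the compared groups alone (0.0407) and without 8 h replicate 3 (0.0246). Nr1d1, encoding REV-ERB alpha, stood at -0.06 ± 0.09 (SE) relative to control and Clock at 0.00 ± 0.18, neither passing (limma adjusted p = 0.702 and 0.999). Tef, the relative of Dbp, had 70 min values of 5.94, 5.98 and 5.88 below control values of 6.05, 6.11 and 6.08, a change of -0.15 ± 0.11 that did not pass (0.38).

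**Figure D3:**
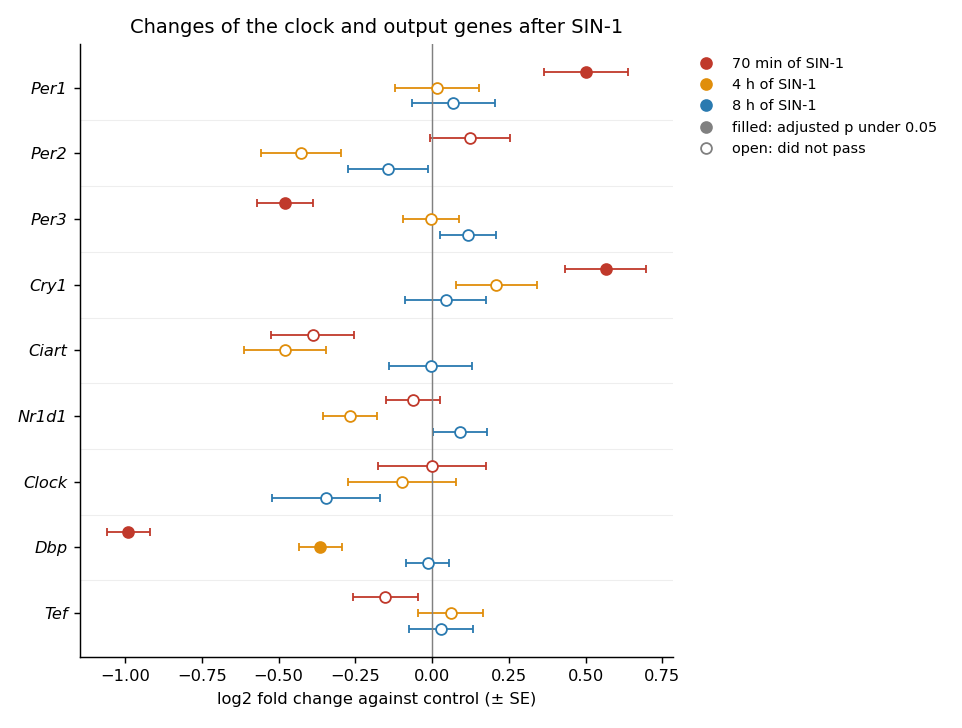
Log2 fold changes of the 9 genes against control at 70 min, 4 h and 8 h of SIN-1 (points, with the model's SE as error bars); filled points passed at an adjusted p under 0.05. At 70 min Dbp and Per3 are filled on the left and Per1 and Cry1 on the right, at 4 h Dbp alone is filled, and at 8 h no point is.

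After 4 h, Dbp alone of the 9 genes passed against control, at a background of 3.85% of all named genes (2.08% higher and 1.77% lower). Its values were 8.46, 8.37 and 8.38, between those at 70 min and those of control, and none overlapped either group. The remaining difference from control was -0.36 ± 0.07 (SE; limma adjusted p = 0.00534). Dbp had risen by 0.63 ± 0.07 (SE) from 70 min (limma adjusted p = 1.58e-05). Per3 was at 6.90, 7.004 and 6.92, overlapping with control, and had risen from 70 min by 0.48 ± 0.09 (SE; limma adjusted p = 0.00295). Per1 was at 6.60, 6.51 and 6.33 and had fallen from 70 min by 0.49 (limma adjusted p = 0.0363), a call that held under 13 of 24 alternatives.

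Per2, Ciart and Nr1d1 had their lowest group mean at 4 h, and none of them passed against control at that time. Ciart already stood at -0.39 at 70 min. Its 4 h arrays overlapped with those of 70 min and differed by -0.09 ± 0.14 (SE, limma adjusted p = 0.771), so a low particular to 4 h was not shown for it. Per2 was at 5.58, 5.54 and 5.53, all 3 below every control array and close together. Against control it differed by -0.43 ± 0.13 (SE) and did not pass (limma adjusted p = 0.0881; 0.0469 without 70 min replicate 2 and 0.0492 among the brighter genes). From 70 min to 4 h, Per2 fell by 0.55 ± 0.13 (SE; limma adjusted p = 0.0135), a call that ended without 70 min replicate 2 (0.0839), the array with its highest value, with the compared groups alone (0.0594), with all probes tested (0.0549) and without the 3 arrays of highest median (0.298). Ciart was at 5.71, 5.81 and 5.71, below all controls, and its difference of -0.48 ± 0.14 (SE) narrowly missed (limma adjusted p = 0.06). It passed among the brighter genes (0.0347), with the compared groups alone (0.032), after a further quantile normalization (0.0495), with the array median as a covariate (0.0497) and without 70 min replicate 1 (0.0494) or 8 h replicate 3 (0.0207). Nr1d1 was at 7.21, 7.33 and 7.21 against controls of 7.64, 7.43 and 7.49, a difference of -0.27 ± 0.09 (SE) that did not pass (limma adjusted p = 0.115).

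In all, 5 of the 9 genes had 4 h arrays that did not overlap with control, against 20.3% of all named genes, and these were Dbp, Per2, Ciart and Nr1d1 below and Cry1 above. Cry1 stood at 6.15, 6.14 and 6.40, a difference of 0.21 ± 0.13 (SE; limma adjusted p = 0.506). Clock was at 7.87, 8.52 and 8.33, a spread wide enough to take in the whole control range of 8.18 to 8.46. Tef was at 6.17, 6.04 and 6.22. Marker lists at 4 h had 1 of 8 fibroblast, 1 of 10 cardiomyocyte and 1 of 4 smooth muscle and pericyte genes lower and none higher. Of all named genes, 1.77% were lower and 2.08% higher at that time. The fibroblast mean ran from 9.58 to 9.74, between the 70 min and control arrays, as Dbp did, and its part in these values was not tested. The number passing at 4 h was 2 after a further quantile normalization, with the array median as a covariate and with the compared groups alone, 3 among the brighter genes, and 2 without 70 min replicate 1 or 2 or 8 h replicate 3. Between 70 min and 4 h, 4 of the 9 genes passed, against 7.63% of all named genes. Dbp and Per3 rose, beside 4.48% of named genes, and Per1 and Per2 fell, beside 3.15%. The arrays of these times did not overlap for 6 of the 9, against 21.0% of all named genes.

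By 8 h no gene of the 9 passed against control by limma, at a background of 0.0275% of all named genes (0.0220% higher and 0.00550% lower), and 0 of the 9 had an unadjusted p under 0.05. The count was also 0 under each of the 24 alternatives. Dbp was at 8.78, 8.78 and 8.71, and its difference from control was -0.01 ± 0.07 (SE), with a 95% interval of -0.16 to 0.13. Per1, Cry1 and Nr1d1 differed from control by 0.07, 0.04 and 0.09. Per3, at 7.01, 7.17 and 7.01, had all its arrays just above the control range, by 0.12 on average, and was the only 1 of the 9 without overlap (13.2% of all named genes). The widest interval was that of Clock, which had values of 7.53, 8.12 and 8.32 and a difference of -0.35 ± 0.18 (SE; 95% interval -0.72 to 0.02), and it did not pass. Its size rested on 8 h replicate 1, without which the difference was -0.12, and it ran to -0.51 without 8 h replicate 3.

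Between 4 h and 8 h, Dbp rose by 0.35 ± 0.07 (SE; limma adjusted p = 0.00772; 0.0511 without 8 h replicate 2) and Nr1d1 rose by 0.36 ± 0.09 (limma adjusted p = 0.0289), 2 of the 9 genes against a background of 3.51% (1.97% higher and 1.54% lower). Ranges at these times were apart for 5 of the 9 genes, against 18.7% of all named genes. Nr1d1 reached 7.71, 7.65 and 7.47, without overlap with its 4 h arrays, but its call ended without 4 h replicate 1 or 3 (0.0806 and 0.0919), without 8 h replicate 1 or 2 (0.12 and 0.14) and under 5 further settings. Ciart stood at 6.38, 6.40 and 5.87, the last far from the other two, and its difference of 0.48 ± 0.14 (SE) from 4 h did not pass (limma adjusted p = 0.0656), while without 8 h replicate 3 it was 0.65 (0.00796). It also passed with array weights (0.52, adjusted p = 0.0314) and among the brighter genes (0.0376). That same array had the lowest 8 h value of Per2, 5.63 against 5.92 and 5.94. Between 70 min and 8 h, 4 of the 9 genes passed, against 16.0% of all named genes (9.56% higher and 6.43% lower), and the ranges of 5 of the 9 were apart, against 30.9%. Dbp rose by 0.98 (limma adjusted p = 6.46e-08) and Per3 by 0.60 (0.000183), while Cry1 fell by 0.52 (0.0114; 0.0503 and 0.0531 without 8 h replicate 1 or 3) and Per1 by 0.43 (0.0386; not under 9 of 24 alternatives).

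The order of the group means differed from gene to gene. For Dbp it was 70 min, 4 h, 8 h and control from low to high, with 8 h and control closer than their spread. For Per3 it was 70 min, then 4 h and control, which overlapped, then 8 h, whose lowest array lay just above the highest array of 4 h (7.008 and 7.004) and whose difference from 4 h did not pass. For Cry1 the order was control, 8 h, 4 h and 70 min, with the first pair overlapping and 4 h overlapping with both 70 min and 8 h, and for Per1 control, 4 h and 8 h overlapped below 70 min. For Per2, Ciart and Nr1d1 the lowest group was 4 h. In Per2 it was followed by 8 h, control and 70 min, which overlapped with one another. In Ciart 70 min came next and overlapped with 4 h, and 8 h and control overlapped above, 8 h replicate 3 reaching into the 70 min range. In Nr1d1 the 70 min, control and 8 h arrays overlapped above 4 h. For Tef the 70 min arrays lay below control while the 4 h and 8 h arrays overlapped with control, and for Clock all 4 groups overlapped.

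**Figure D4:**
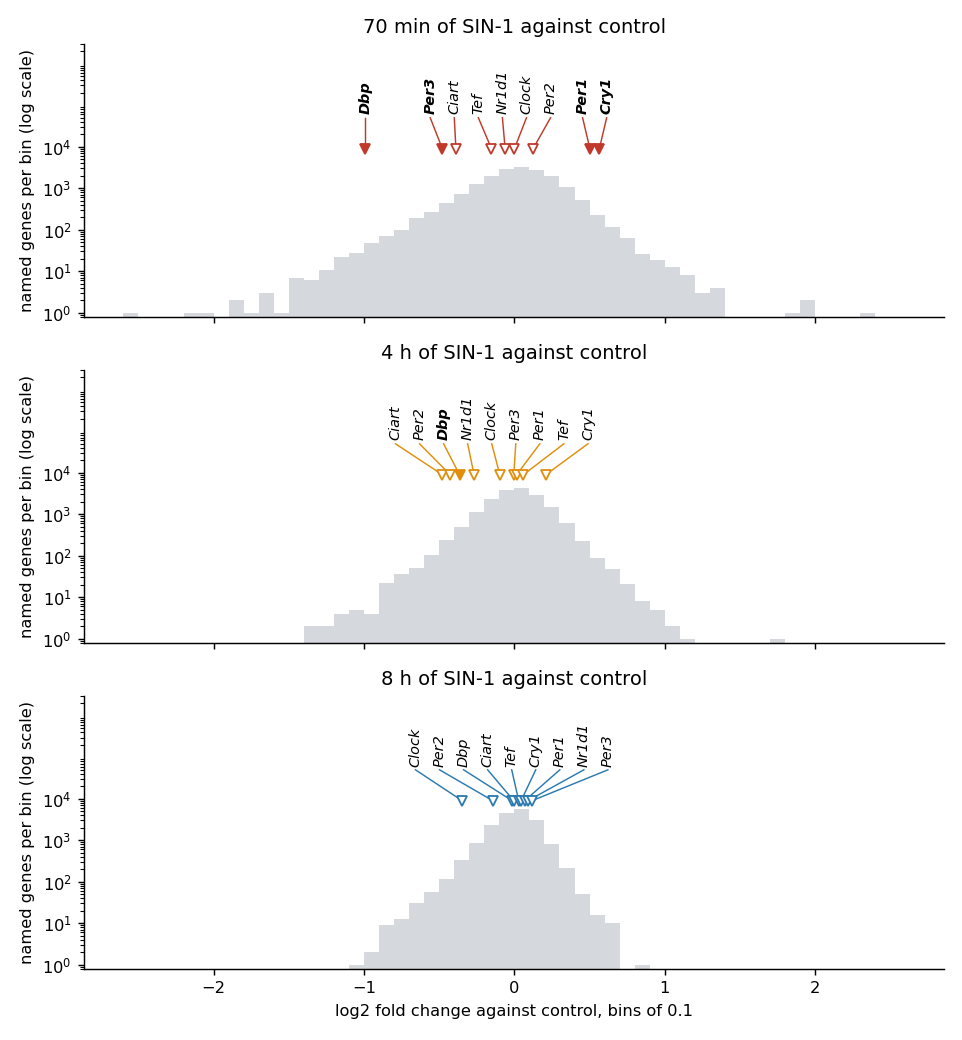
Place of the 9 genes (triangles, filled where the adjusted p was under 0.05) in the distribution of log2 fold changes of all 18166 named genes (grey bars, bins of 0.1, log scale; the outermost bins take in anything beyond) at each time against control. Dbp lies in the left tail at 70 min, beyond 99.3% of named genes in size, and at 8 h, in a narrower distribution, Clock lies furthest out of the 9, beyond 97.2% in size with an open mark.

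The wider clock list holds 20 other genes of the loop and its modifying enzymes, 15 of which were measured. At 70 min 1 of the 15 was higher and none lower, a share no larger than the 14.6% of all named genes that passed at that time. That gene was Bhlhe40, which encodes DEC1, a repressor that competes for E-boxes and responds to many acute signals. It went from 8.25, 8.24 and 8.22 in control to 9.08, 9.01 and 8.94, a 1.71-fold rise (0.77 ± 0.08, SE; limma adjusted p = 7.73e-06). Then it fell by 1.04 to 4 h values of 8.15, 7.93 and 7.82 (limma adjusted p = 4.12e-07) and stayed at 8.08, 7.97 and 7.89 at 8 h, below every control array at both times without passing (limma adjusted p = 0.0922 and 0.79; at 4 h 0.0462 with the array median as a covariate, 0.0482 with the replicate block and 0.0205 without 4 h replicate 1). Its high time was thus that of Per1 and Cry1, and the low time of Dbp and Per3.

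At 4 h 1 of the 15 was lower and none higher, beside 3.85% of all named genes in either direction. It was Csnk1e, which encodes the casein kinase that phosphorylates Period proteins, at 8.55, 8.31 and 8.46 against controls of 8.77, 8.83 and 8.79 (-0.36 ± 0.07, SE; limma adjusted p = 0.00796; 0.0544 without the trend in the prior variance). By 8 h Csnk1e had risen again by 0.39 (limma adjusted p = 0.00419). At 8 h 0 of the 15 passed against control by limma, at a background of 0.0275% of all named genes. Of the 15, 3 had an unadjusted p under 0.05, Bhlhe40 (-0.26) and the receptor gene Rorb (-0.36) lower and Fbxw11 (0.20) higher. Rorb, with all its 8 h arrays below every control array, had a limma adjusted p of 0.264. Rorb was named after its values were seen because it passed between treated times. It fell by 0.29 from 70 min to 4 h and by 0.53 from 70 min to 8 h (limma adjusted p = 0.0411 and 0.000242). The first of these calls held under 9 of 24 alternatives, with adjusted p between 0.00934 and 0.255, and was lost with the replicate block (0.0539), while the second held under all 24. The partners of CLOCK did not pass at any time against control. Bmal1 stood at 0.17, -0.12 and -0.02 relative to control at 70 min, 4 h and 8 h, and Npas2 at 0.15, 0.11 and -0.17. Cry2 stood at 0.10, -0.10 and 0.01, and Nfil3, the repressor that competes for D-boxes, at 0.03, -0.09 and 0.08. Bhlhe41 had -0.04, 0.20 and -0.07, and Rora had -0.05, -0.25 and -0.09. The medians of the 15 were 0.10, 0.00 and 0.01, beside 0.03, 0.01 and 0.01 for all named genes.

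**Figure D5:**
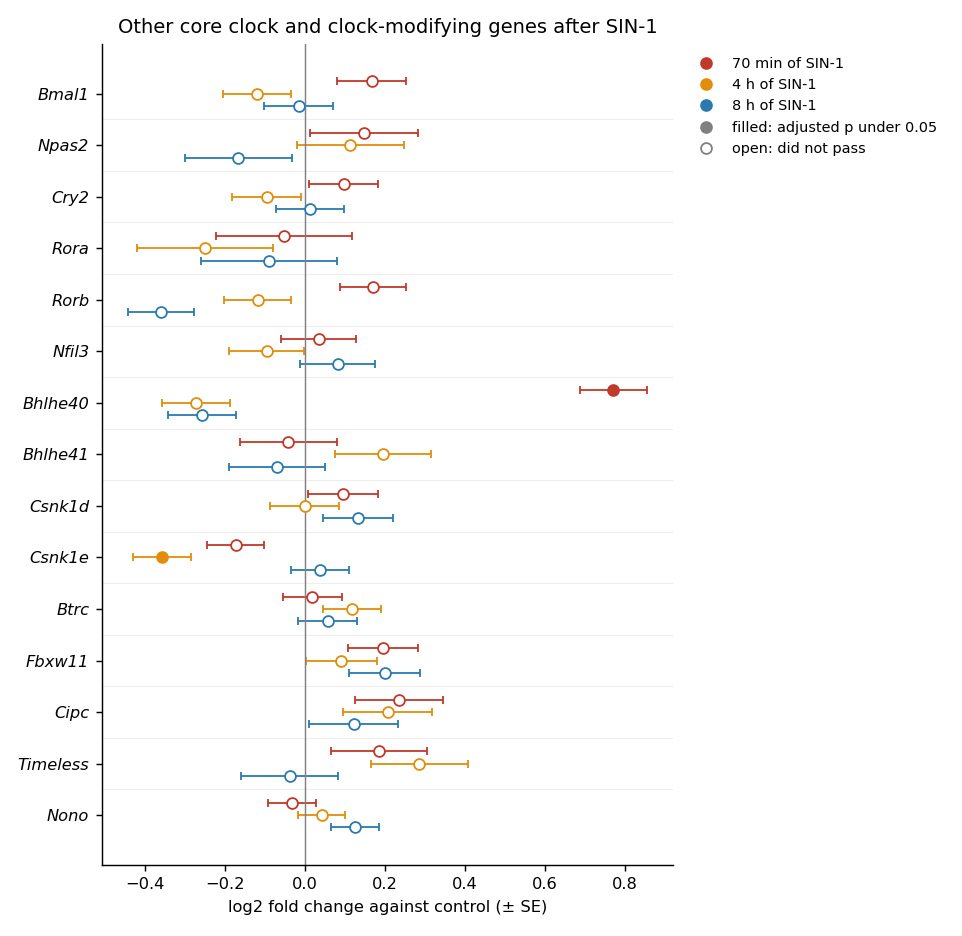
Log2 fold changes against control of the 15 other core clock and clock-modifying genes at 70 min, 4 h and 8 h of SIN-1 (points, with the model's SE); filled points passed at an adjusted p under 0.05. Bhlhe40 at 70 min (0.77) and Csnk1e at 4 h (-0.36) are the filled points.

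Genes known to follow the clock or to share its acute inputs were counted in the same fit. Of 10 measured clock-controlled genes outside the loop, 1 rose and 1 fell at 70 min, beside 6.76% and 7.81% of all named genes, a share near the background of 14.6% in either direction. Klf10, a Krüppel-like repressor, rose by 0.48 and Pdk4, the kinase that restrains pyruvate dehydrogenase, fell by 0.73 (limma adjusted p = 0.00511 and 0.00103). At 4 h and 8 h 0 of the 10 passed by limma, beside 3.85% and 0.0275% of all named genes, with 1 and 0 at an unadjusted p under 0.05. Of 8 glucocorticoid-responsive genes, 3 rose at 70 min, beside the 6.76% of all named genes, and the list's median was 0.02. Klf9 rose by 0.50, Fkbp5 by 0.30 and Errfi1 by 0.23 (limma adjusted p = 0.000892, 0.0493 and 0.0346). The other 5 did not pass, with Tsc22d3, Zbtb16, Pik3r1 and Sgk1 at -0.26, -0.27, -0.04 and -0.02 and Mt2A at 0.07. At 4 h Mt2A, a metallothionein gene of this list, was higher by 0.38 and Errfi1 was lower by 0.44 (limma adjusted p = 0.000391 and 0.00122). At 8 h 0 of the 8 passed, beside 0.0275% of all named genes, with 2 at an unadjusted p under 0.05. These were Mt2A, still above every control array (0.28, limma adjusted p = 0.105), and Pik3r1 (-0.22, limma adjusted p = 0.906). The calls of Fkbp5 and Errfi1 at 70 min ended with arrays centred on their medians (0.22 and 0.264) and under several other settings, Fkbp5 with the replicate block too (0.0584). The median change of 10 cAMP and CREB-responsive genes was 0.34 at 70 min. Of them, 4 rose and 1 fell, beside 6.76% and 7.81% of all named genes. The 4 largest were the NR4A receptor genes Nr4a1 (2.38), Nr4a3 (1.95) and Nr4a2 (1.90) and the kinase gene Sik1 (1.302), with limma adjusted p of 3.1e-05 or smaller. At 4 h 2 of the 10 were lower and none higher, beside 1.77% and 2.08% of all named genes. They were the early genes Fos and Junb, at -0.78 and -0.59 (limma adjusted p = 0.00641 and 0.0237). The call of Junb held under 15 of 24 alternatives. Fos was also the gene of this list that fell at 70 min (-0.60, limma adjusted p = 0.0125). Its 8 h arrays still lay below every control array without passing (-0.51, limma adjusted p = 0.654). At 8 h 0 of the 10 passed by limma, beside 0.0275% of all named genes, with 1 at an unadjusted p under 0.05. These lists overlap with gene groups already known to move in these data, so they add no independent evidence about the clock genes.

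Likeness of pattern was described for Dbp, Per3 and Cry1, which had the largest F statistics of the 9. Over the 12 arrays, which share 4 group means, the named genes most like Dbp were Scd2, a fatty acid desaturase gene (Pearson r = 0.99), Amotl2, which encodes a junction protein of the angiomotin family (0.986), and Mtmr11 (0.986). Scd2 went from 9.40 in control to 8.40 at 70 min, 9.05 at 4 h and 9.47 at 8 h, step for step with Dbp. Most like Per3 were Dyrk1b (0.965), Arhgap28 (0.957) and Adamts3 (0.955), and Dyrk1b, a protein kinase gene, had means of 6.99, 6.19, 6.91 and 7.13. Most like Cry1 were Sec24a, a component of the COPII vesicle coat (0.939), Mgat4e (0.928) and Tex10 (0.925), Sec24a having means of 8.71, 9.27, 8.94 and 8.73. The 9 clock genes themselves were left out of this ranking before it was made. Their absence from it is therefore no result, and their likeness to one another was not tested. Some named genes, such as those with provisional symbols, were left out too. No gene of the wider clock list was among these 9 nearest neighbours. With only 15 measured genes of that list among 18166 named genes, this absence is no result either.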

How the data were processed

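Total RNA was hybridised to 12 one-colour arrays that probe whole transcripts, 3 arrays for each of 4 groups. Per the submitters' processing notes, the authors normalized by RMA in Affymetrix Expression Console 1.3.1.187, and the deposited values are taken as log2 from their range of 1.19 to 13.63. Nothing says whether replicates came from separate animals, so p-values measure only the spread between these samples. Of 36685 probes, 18511 had 1 gene symbol in the platform annotation. The probe with the highest mean stood for each of 18166 named genes, and 575 probes with several symbols and 17599 unlisted ones were left out. With limma 3.58.1 in R 4.3.3, all arrays entered one model whose single term was the group (lmFit, then eBayes with a trend, 8 residual degrees of freedom), two-sided, and Benjamini-Hochberg adjustment ran over all named genes in each of 6 comparisons. The procedure was tested on simulated data with independent noise for each gene and array. These data held no shift shared by a whole array, so the test does not cover the raised medians of some arrays. Fold changes are 2 to the power of the log2 change. The number of arrays limits the precision, with a median SE of 0.131 over named genes. Brighter genes are those with a mean of at least the named genes' median of 5.75. Besides the 9 genes, the text names clock-list genes that passed against control, a fixed set of core clock genes, up to 4 passing genes of each further list by their change at 70 min, and the 3 genes most correlated with each of the 3 genes of largest F. The genes of the further lists that passed at 4 h or are given without passing, and Rorb and Fbxw11, were named after their values were seen. The genes and lists were chosen with earlier results of these data known.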

Additional observations from a re-analysis of the deposited data

Results flagged for a closer look

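The treated times differed from one another by their own test for 6 of the 9 clock genes in at least 1 comparison. Of all named genes, 7.63% passed between 70 min and 4 h and 3.51% between 4 h and 8 h. Between 70 min and 8 h 16.0% passed, and the share passing in any of these comparisons was not computed. Between 70 min and 4 h, the log2 difference (4 h minus 70 min) was 0.626 for Dbp, 0.475 for Per3, -0.487 for Per1 and -0.552 for Per2. Between 4 h and 8 h it was 0.35 for Dbp and 0.358 for Nr1d1 (8 h minus 4 h). Between 70 min and 8 h it was 0.975 for Dbp, 0.597 for Per3, -0.52 for Cry1 and -0.433 for Per1 (8 h minus 70 min). Each passed limma's test at an adjusted p under 0.05, and the adjusted values stand beside these changes in the report.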

How the results depend on the processing

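The counts of genes passing and the log2 changes of the named genes that were tested again were each recomputed under 24 alternatives, 12 of them leaving out 1 array. The F test, Npas2 and Nr4a3 had 23, since the compared groups alone give no F test over 4 groups and those 2 genes are not among the brighter genes. The counts of the further gene lists, the marker levels and the likeness of pattern were not recomputed. Dbp, Per3 and Cry1 against control at 70 min, and Dbp at 4 h, passed under all 24. Over values of the 9 genes, 1194 of 1296 repeats kept their direction and side of the threshold, 42 lost a call, 19 gained one and 41 changed sign, and none that changed sign was called. For the other named genes 888 of 956 kept both, 48 lost, 3 gained and 17 changed sign. The cause of these changes was not tested.
The count at 4 h against control (1) was 2 after a further quantile normalization, on the compared groups alone and with each array's median as a covariate, and 3 among brighter genes. That of 4 h against 70 min (4) was 2 with all probes tested, with the compared groups alone and without the 3 arrays of highest median. That of 8 h against 4 h (2) was 1 under those 3 settings, with arrays centred on their medians and without the trend. The F test count (7) was 3 with arrays centred, 2 with all probes and 3 without the 3 arrays. When 1 array was left out, the counts ran from 3 to 5 at 70 min, 1 to 2 at 4 h, 0 to 0 at 8 h, 3 to 4 for 4 h against 70 min, 0 to 3 for 8 h against 4 h (0 without 8 h replicate 2), 3 to 4 for 8 h against 70 min and 3 to 6 for the F test.
Over all named genes the number passing was 2647 at 70 min, 699 at 4 h and 5 at 8 h, and ran over the alternatives from 1046 to 3626, 339 to 903 and 2 to 37. It was 1386, 637 and 2904 for 4 h against 70 min, 8 h against 4 h and 8 h against 70 min, running from 318 to 1799, 299 to 851 and 1181 to 4113.
Changes of sign were all of log2 values that were not called. The largest value after such a change was 0.183, for Rora at 70 min without the 3 arrays of highest median. With the array median as a covariate, Ciart at 8 h was 0.00316, Per1 at 8 h -0.00126, Per1 from 4 h to 8 h -0.00715 and Rora at 70 min 0.0553. With array weights, Bmal1, Ciart and Tef at 8 h were 0.00177, 0.0422 and -0.0208, Clock at 70 min -0.045 and Per1 from 4 h to 8 h -0.00984. With arrays centred, Bmal1, Ciart and Dbp at 8 h were 0.01, 0.0211 and 0.0107, and Clock and Nfil3 at 70 min -0.0528 and -0.0185. After a further quantile normalization, Ciart at 8 h was 0.00273 and Per3 at 4 h 0.00305. Without the 3 arrays of highest median, Bhlhe41, Nfil3 and Rora at 70 min were 0.0913, -0.0211 and 0.183, Per3 at 4 h 0.00673, Ciart from 70 min to 4 h 0.086, and Per1 and Tef from 4 h to 8 h -0.0233 and 0.00463.
Leaving out 1 array, values that changed sign at 70 min ran from -0.0849 to 0.115 for Clock, -0.0197 to 0.214 for Per2, -0.116 to 0.0994 for Bhlhe41, -0.00354 to 0.0776 for Nfil3 and -0.168 to 0.158 for Rora. At 4 h they ran from -0.235 to 0.0873 for Clock, -0.0906 to 0.143 for Per1 and -0.0394 to 0.0216 for Per3. At 8 h they ran from -0.0961 to 0.17 for Ciart, -0.0773 to 0.108 for Cry1, -0.0353 to 0.0107 for Dbp, -0.0372 to 0.196 for Per1, -0.0508 to 0.0925 for Tef, -0.0606 to 0.0228 for Bmal1, -0.0254 to 0.0502 for Cry2 and -0.197 to 0.0275 for Rora. From 70 min to 4 h Clock ran from -0.235 to 0.0869, and from 4 h to 8 h Per1 from -0.0394 to 0.116 and Tef from -0.111 to 0.0322.
Deviations of same-numbered arrays had correlations of -0.322 to 0.24, and 6 of 12 arrays correlated best with their own number. No chance level was computed for these values, so they do not settle whether the numbers mark a pairing. The main fit did not take them as one. With the replicate block the counts were 4, 1, 0, 4, 2, 4 and 7, as without it.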
